A study of Mus musculus with 9 samples.

Results

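The 3 D-type cyclins and the 7 cyclin-dependent kinase (CDK) inhibitors of the mouse genome were followed across 3 culture conditions of an embryonic stem cell line. The members were Ccnd1, Ccnd2 and Ccnd3, the Cip/Kip inhibitors Cdkn1a, Cdkn1b and Cdkn1c, and the INK4 inhibitors Cdkn2a, Cdkn2b, Cdkn2c and Cdkn2d. They were chosen by name: every array probe whose RefSeq accession belongs to one of these 10 genes was taken, which gave 14 of the 55681 probes that are not controls, and 10 of the 20660 genes named on the array. Ccnd3, Cdkn1a, Cdkn2a and Cdkn2b have 2 probes each and the other 6 genes have 1. All 14 probes were well above background on all 9 arrays, so every member was measured in every sample.

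The cells were J1 mouse embryonic stem cells, an established line of the 129S4/SvJae strain. In every group they grew on gelatin in a medium with serum replacement and 1000 U/mL LIF, the cytokine that holds such cells in the undifferentiated state. One group received 3 µM CHIR99021, which inhibits GSK3 and thereby stabilises beta-catenin. Another received 1 mM AICAR, a nucleoside that cells convert into an activator of the energy-sensing kinase AMPK, and the control group received DMSO, the solvent. All groups were sampled after 24 h, with 3 samples each, and total RNA of each sample was hybridised with a single dye to its own Agilent array. Whether the 3 samples of a group were separate cultures is not stated, so the spread that the p-values rest on may be technical.

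D-type cyclins bind CDK4 and CDK6 and start the phosphorylation of the retinoblastoma protein, which releases E2F factors and lets a cell enter S phase. INK4 proteins bind CDK4 and CDK6 alone and keep cyclins away from them. Cip/Kip proteins bind whole cyclin-CDK complexes, including those of cyclin E and cyclin A with CDK2. Mouse embryonic stem cells are known for a short G1 phase, with little D-type cyclin and INK4 inhibitor and with CDK2 active through most of the cycle.

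Each level is given as log2 of the background-corrected signal minus log2 of the 75th percentile of the same array, so 0 is the level below which 75% of the spots lie. Levels of different probes cannot be set against each other, and for the members only the differences between arrays within a probe are compared. The marker sums below add the levels of different probes. A marker's share or rank in such a sum is one of signal and not of RNA amount. A difference is called where limma, fitted over all 26866 features that passed a filter on dim probes, gave a Benjamini-Hochberg adjusted p under 0.05. A feature is a gene represented by its brightest probe. Differences are log2 fold changes with their standard error (SE, n = 3 against 3).

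Between 62.8% and 67.2% of the spots were well above background per array, and the 75th percentile lay at a signal of 567 to 617. Arrays of one group correlated at 0.995 to 0.997 over all features and arrays of different groups at 0.973 to 0.983. Each group lies on a slide of its own, so a difference between groups and a difference between slides cannot be told apart at any result below. All 12 pluripotency markers on the list used were above background on all 9 arrays. Their summed linear level was 628 to 646 times the 75th percentile with DMSO, 595 to 620 with CHIR99021 and 625 to 671 with AICAR. Dppa5a alone made up 51.5% to 55.6% of that sum, which therefore says little of the other markers. Utf1 was at 5.78 to 5.85 on the log2 scale with DMSO, 4.54 to 4.62 with CHIR99021 and 4.52 to 4.72 with AICAR. Lin28a was at 4.70 to 4.75 with DMSO and 3.27 to 3.54 with AICAR, and Dppa3 at 0.72 to 0.87 and -0.92 to -0.73. Esrrb went the other way, at 5.82 to 5.91 with DMSO, 6.57 to 6.64 with CHIR99021 and 6.25 to 6.38 with AICAR. Fgf4 was at 5.59 to 5.65 with DMSO, 4.88 to 4.94 with CHIR99021 and 6.06 to 6.10 with AICAR. The list thus did not move in a single direction. Of 8 mesoderm markers 4 were above background on all arrays and Mixl1 on none, and their sum was 10.03 to 10.9 with DMSO, 20.2 to 22.9 with CHIR99021 and 13.0 to 14.9 with AICAR. The sum of 8 neural markers, 7 of them above background on all arrays, was 4.37 to 4.43 with DMSO, 1.98 to 2.18 with CHIR99021 and 3.05 to 3.39 with AICAR. The sum of 8 trophoblast markers, 3 of them above background throughout and Plac1 on no array, was 9.67 to 10.4, 18.0 to 19.4 and 16.0 to 16.3 in the same order. Of 12 fibroblast markers 6 were above background throughout and Lum, Postn, Twist2 and Prrx1 on no array, with sums of 3.14 to 3.25, 2.71 to 3.63 and 4.66 to 5.37. For 8 extraembryonic endoderm markers, 6 of them above background throughout, the sums were 0.913 to 0.971, 0.980 to 1.08 and 1.06 to 1.13. Single genes weigh on these sums too. With DMSO the highest mesoderm marker was Kdr at 3.16 to 3.29 and the highest trophoblast marker Tfap2c at 3.23 to 3.34. With CHIR99021 Kdr was at 3.57 to 3.83 and Tfap2c at 3.85 to 3.94. The mesoderm marker T was at -6.09 to -5.27 with DMSO and 2.64 to 2.67 with CHIR99021. The trophoblast marker Cdx2 was at -5.85 to -5.06 with DMSO and 1.66 to 1.95 with CHIR99021. The fibroblast marker Thy1 was at 0.26 to 0.38 with DMSO and 1.12 to 1.45 with AICAR. Col1a2 went the other way, at -1.05 to -0.93 and -2.36 to -2.23. A sum thus does not stand for each marker of its list. Several of the sums differ between the groups, and their part in the results below was not tested. In RNA from whole cultures, fewer cells of a type and less RNA per cell cannot be told apart.

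Most members changed under AICAR and somewhat fewer under CHIR99021, in both directions. With CHIR99021, 3 members rose (Ccnd1, Cdkn1a and Cdkn2c), 3 fell (Ccnd2, Cdkn1b and Cdkn1c) and 4 were not called. Over all 26866 features, 30.4% were called higher and 20.5% lower in that comparison, so a count of 6 among 10 is near the background. With AICAR, 6 members rose (Ccnd3, Cdkn1a, Cdkn1b, Cdkn2b, Cdkn2c and Cdkn2d), 3 fell (Ccnd1, Ccnd2 and Cdkn1c) and Cdkn2a was not called, against 30.9% of all features called higher and 29.6% lower. The median log2 fold change of the 10 members was -0.05 with CHIR99021 and 0.59 with AICAR, beside 0.07 and 0.03 over all features. Taken probe by probe, 8 of the 14 were called with CHIR99021 and 11 of 14 with AICAR, where 47.7% and 58.6% of all 37742 probes were called.

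Both treatments are set against the same 3 DMSO arrays, so the direct comparison of the treated groups carries the test of whether they differ. CHIR99021 minus AICAR was called for 9 of the 10 members, 3 of them higher with CHIR99021 (Ccnd1, Ccnd2 and Cdkn1a) and 6 lower, against 36.2% and 24.6% of all features. The members' median in this comparison was -0.58, beside 0.10 over all features. Of the 14 probes 12 were called, where 58.8% of all probes were. Scaling by the spike-in controls moved the median of all features from 0.03 to 0.19 for AICAR and from 0.10 to -0.11 for CHIR99021 minus AICAR. It also moved the share of calls that are higher from 51.1% to 70.3% with AICAR and from 59.5% to 32.2% in the direct comparison. Under that scaling 13735 of the 26866 features were called with AICAR, 9164 with CHIR99021 (50.8% of these higher) and 12019 in the direct comparison. Of the members, 6 were then called higher and 3 lower with AICAR, and 3 higher and 2 lower with CHIR99021. In the direct comparison 2 members were higher and 6 lower.

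**Figure D1:**
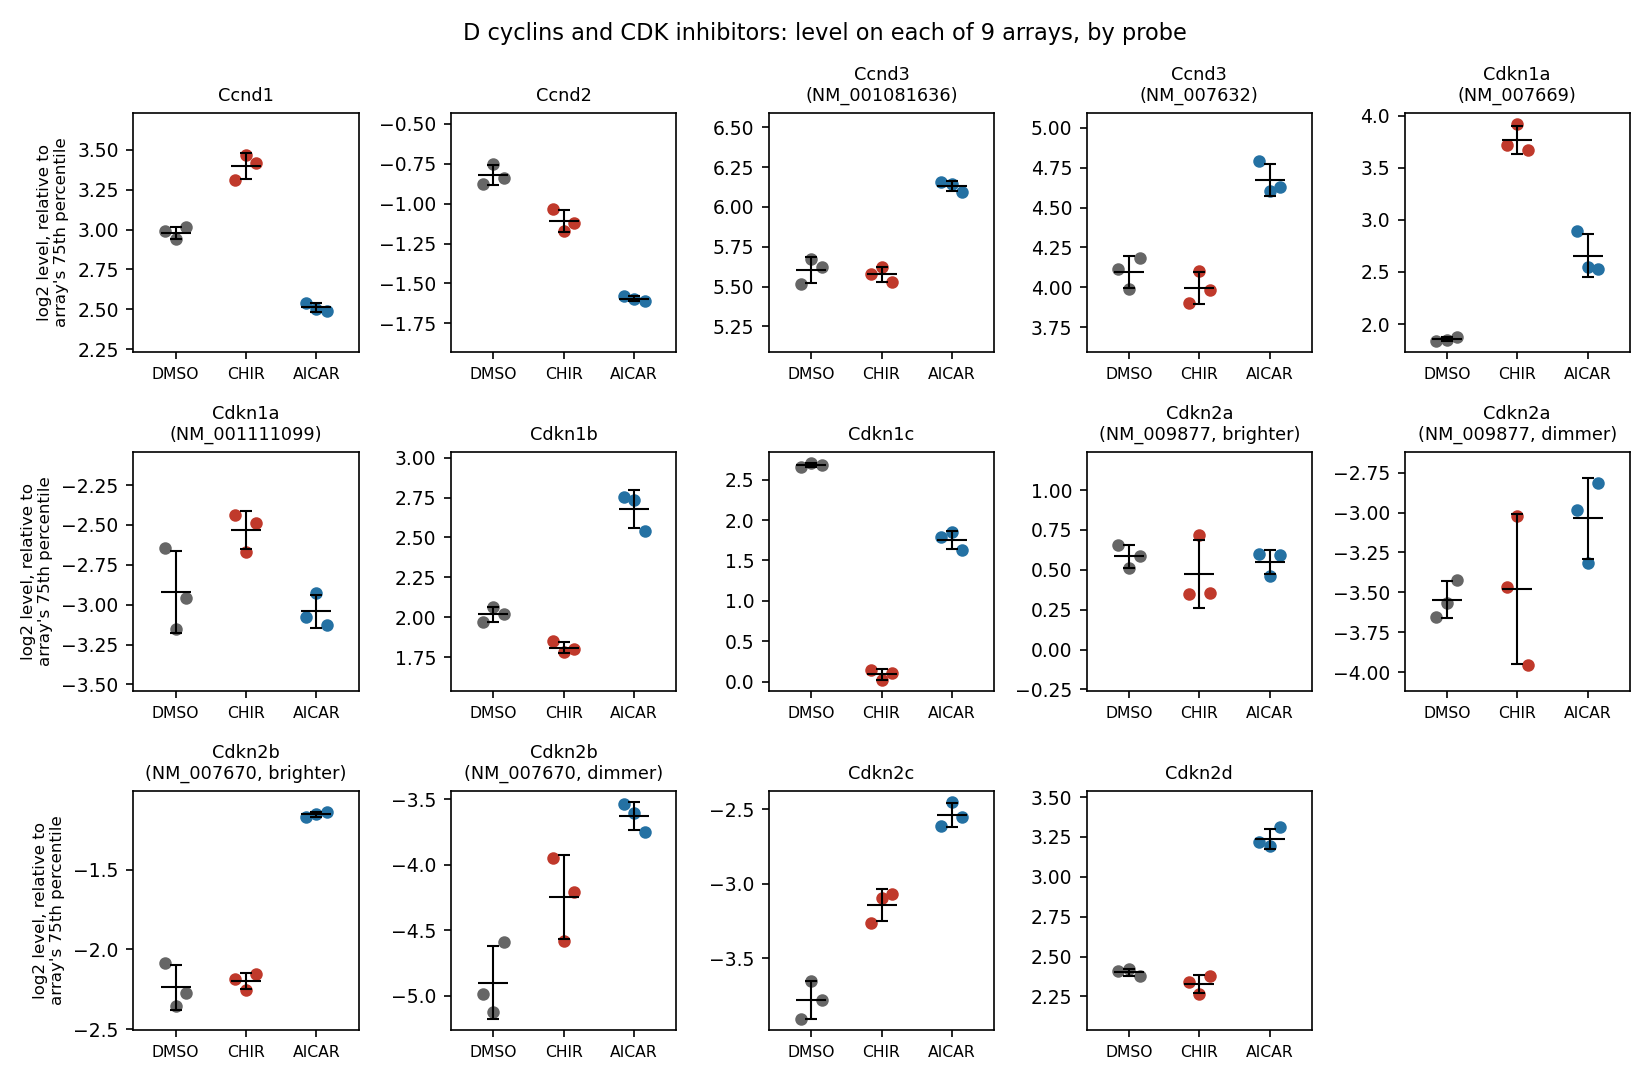
Log2 level relative to the array's 75th percentile (y axis, ranges differ between panels) of each of the 14 member probes on the 3 DMSO (grey), 3 CHIR99021 (red) and 3 AICAR (blue) arrays. Points are arrays and black bars the group mean ± SD; the 3 CHIR99021 arrays of Cdkn1c lie between 0.02 and 0.14, below all others of that probe.

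Among the D cyclins, Ccnd1 moved in opposite directions under the treatments, Ccnd2 fell under both, and Ccnd3 rose with AICAR and was not called with CHIR99021. Ccnd1, which encodes cyclin D1, a textbook target of both beta-catenin and growth factor signalling, stood at 2.99, 2.94 and 3.01 on the DMSO arrays, at 3.31, 3.47 and 3.42 with CHIR99021 and at 2.54, 2.50 and 2.49 with AICAR. The groups did not overlap, with AICAR lowest and CHIR99021 highest. The rise with CHIR99021 was 0.42 ± 0.05 (1.34-fold, adjusted p = 0.000377, limma), and the fall with AICAR was -0.47 ± 0.05 (1.39-fold, adjusted p = 0.000131). The treated groups differed by 0.89 (1.85-fold, adjusted p = 3.59e-06). With spike-in scaling the AICAR change was -0.30 and still called (adjusted p = 0.0412).

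Ccnd2, which encodes cyclin D2, was at -0.87, -0.75 and -0.84 with DMSO, at -1.03, -1.17 and -1.12 with CHIR99021 and at -1.58, -1.60 and -1.61 with AICAR. The order was thus DMSO, CHIR99021, AICAR from high to low, with no overlap between neighbours. The change was -0.29 ± 0.05 with CHIR99021 (1.22-fold, adjusted p = 0.00285) and -0.77 ± 0.05 with AICAR (1.71-fold, adjusted p = 9.79e-06). CHIR99021 minus AICAR was 0.49 (adjusted p = 0.000109). Scaled by the spike-in controls this last difference was 0.27, with an adjusted p of 0.0562.

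Ccnd3, which encodes cyclin D3, was read by 2 probes of different RefSeq transcripts. Its brighter probe (NM_001081636) gave 5.51, 5.67 and 5.62 with DMSO, 5.58, 5.62 and 5.53 with CHIR99021 and 6.15, 6.15 and 6.09 with AICAR. The DMSO and CHIR99021 arrays overlapped, and the AICAR arrays lay above both. The rise with AICAR was 0.53 ± 0.06 (1.44-fold, adjusted p = 8.43e-05), and CHIR99021 minus AICAR was -0.55 (adjusted p = 5.72e-05). The difference with CHIR99021 was -0.03 (95% confidence interval -0.15 to 0.10, adjusted p = 0.734). The dimmer probe (NM_007632) gave 0.58 ± 0.08 with AICAR and -0.10 ± 0.08 with CHIR99021, and the probes' changes were not called different by the test described for Cdkn1a (adjusted p = 0.730 and 0.611).

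**Figure D2:**
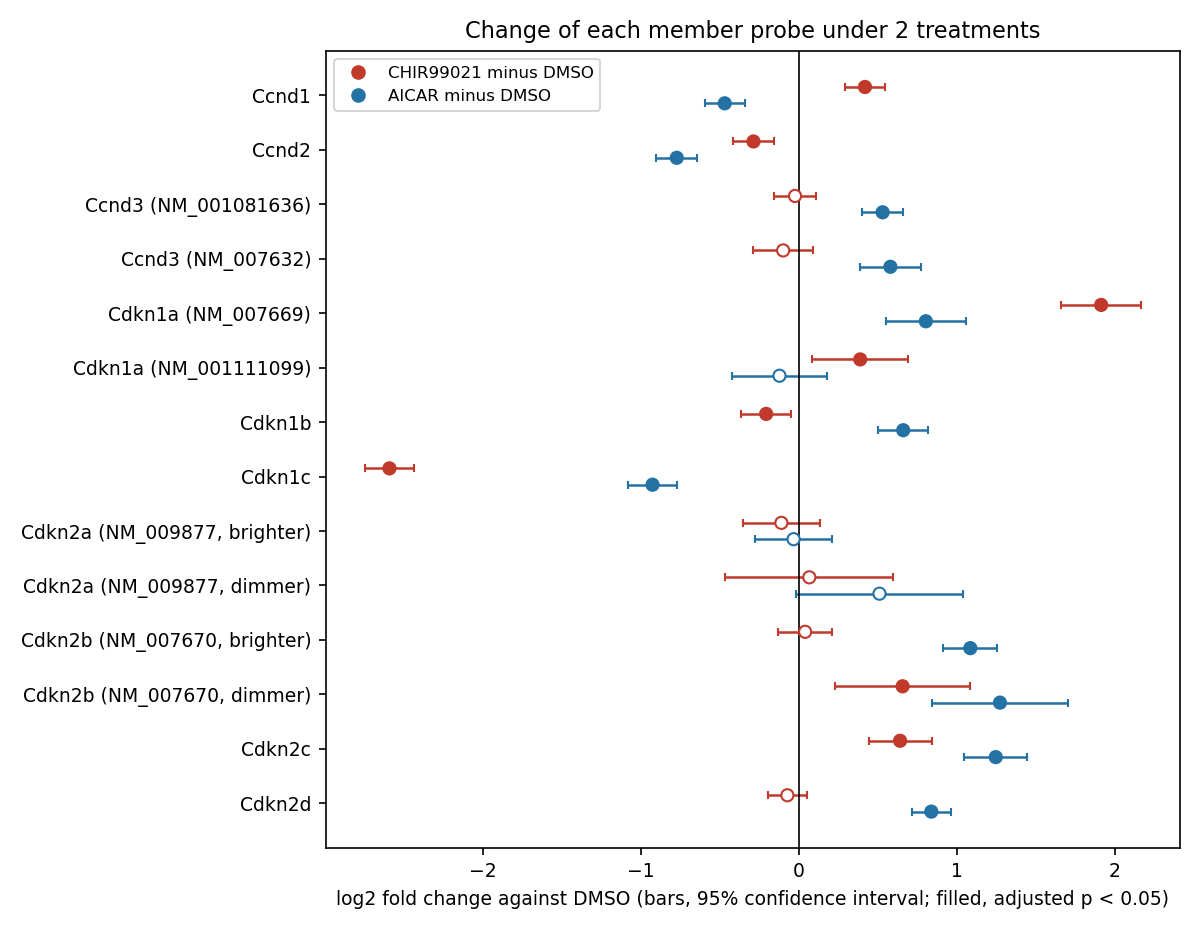
Log2 fold change against DMSO (x axis) of each of the 14 member probes with CHIR99021 (red) and AICAR (blue), from the fit of each probe on its own. Bars are 95% confidence intervals and filled points have an adjusted p under 0.05; Cdkn1c at -2.59 and the NM_007669 probe of Cdkn1a at 1.91 lie farthest from 0.

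The Cip/Kip inhibitors Cdkn1c and Cdkn1a had the widest ranges of group means among the 10 members, 2.59 and 1.91, while Cdkn1b at 0.87 came after 3 of the INK4 genes and Ccnd1. Cdkn1c, which encodes p57, an imprinted gene expressed from the maternal chromosome, was at 2.66, 2.71 and 2.68 with DMSO. It was at 0.14, 0.02 and 0.10 with CHIR99021 and at 1.79, 1.85 and 1.63 with AICAR. All 3 groups were apart, and their order was DMSO, AICAR, CHIR99021 from high to low. Cdkn1c fell by 2.59 ± 0.07 on the log2 scale with CHIR99021 (6.03-fold, adjusted p = 1.24e-07), and 0.670% of all features had a larger absolute difference in that comparison. It fell by 0.93 ± 0.07 with AICAR (1.90-fold, adjusted p = 1.10e-05), and CHIR99021 minus AICAR was -1.67 (3.17-fold, adjusted p = 5.44e-07).

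Cdkn1a, which encodes p21, the best-known transcriptional target of p53 among cell cycle inhibitors, moved the other way. Its brighter probe (NM_007669), which is printed 10 times on the array, gave 1.84, 1.85 and 1.88 with DMSO. It gave 3.71, 3.92 and 3.67 with CHIR99021 and 2.89, 2.55 and 2.53 with AICAR. The groups did not overlap, CHIR99021 being highest and DMSO lowest. Across the 10 spots of one array the SD was 0.031 to 0.067. Cdkn1a rose by 1.91 ± 0.11 with CHIR99021 (3.76-fold, adjusted p = 5.04e-06) and by 0.80 ± 0.11 with AICAR (1.74-fold, adjusted p = 0.000343). CHIR99021 exceeded AICAR by 1.11 (2.16-fold, adjusted p = 4.97e-05). Larger absolute changes were seen for 1.79% of all features with CHIR99021 and for 18.4% with AICAR.

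The other Cdkn1a probe (NM_001111099) read a smaller change. This probe is dim, with corrected signals of 65.0 to 106 on the scanner's scale. It gave -2.65, -3.15 and -2.96 with DMSO, -2.44, -2.67 and -2.49 with CHIR99021 and -3.08, -2.93 and -3.12 with AICAR. The DMSO arrays overlapped with those of both treated groups. In the fit of each probe on its own, the change was 0.39 ± 0.13 with CHIR99021 (adjusted p = 0.0411) and -0.12 ± 0.13 with AICAR (95% confidence interval -0.43 to 0.18, adjusted p = 0.448). To test whether probes of a gene changed unequally, the difference between the brighter and the dimmer probe was fitted over the 4198 genes with at least 2 kept probes, a test added after the values of Cdkn1a had been seen. The brighter probe of Cdkn1a exceeded the dimmer one in its change by 1.53 ± 0.19 with CHIR99021 (adjusted p = 0.00106) and by 0.93 ± 0.19 with AICAR (adjusted p = 0.00642). Such inequality was called for 21.4% of the genes with CHIR99021 and for 32.6% with AICAR. With the mean of both probes in place of the brighter one, the Cdkn1a change was 1.15 with CHIR99021 and 0.34 with AICAR (adjusted p = 0.00562).

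RefSeq places 2 transcription starts of Cdkn1a some distance apart, and the 250 bases before each are printed because the probes carry accessions of different transcripts. The table used here does not say which start belongs to which accession. Windows are of build GRCm38.p6 and on the plus strand, at chr17:29090729-29090978 for the first start and chr17:29093519-29093768 for the second. Capitals mark a pair of p53 half-site cores (CATG, then 6 bases of any kind, then CATG) in the first and GC boxes (GGGCGG) in the second.
Cdkn1a start 1: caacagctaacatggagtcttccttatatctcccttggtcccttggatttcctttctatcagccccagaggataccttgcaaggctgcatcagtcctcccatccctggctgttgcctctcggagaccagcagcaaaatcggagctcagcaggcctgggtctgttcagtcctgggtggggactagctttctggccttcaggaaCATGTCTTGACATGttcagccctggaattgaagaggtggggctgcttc
Cdkn1a start 2: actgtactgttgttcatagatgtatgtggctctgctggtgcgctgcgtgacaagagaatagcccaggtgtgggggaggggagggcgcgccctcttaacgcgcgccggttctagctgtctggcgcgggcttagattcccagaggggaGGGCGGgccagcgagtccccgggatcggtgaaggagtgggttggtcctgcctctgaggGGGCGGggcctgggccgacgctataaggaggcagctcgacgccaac
The pair of p53 cores lies 48 to 35 bases before the first start and occurs in 0.49% of the 32851 promoter windows of the same length in the table. The second window holds 2 GC boxes, read on both strands like every motif here, at 104 to 99 and 46 to 41 bases before the start. A GC box is found in 32.7% of all windows. These are matches of letters in the windows and no measurement of binding.

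Cdkn1b, which encodes p27, a brake on cyclin E-CDK2 that is largely regulated through its breakdown, was at 1.97, 2.06 and 2.02 with DMSO. It was at 1.85, 1.78 and 1.80 with CHIR99021 and at 2.76, 2.74 and 2.54 with AICAR. No groups overlapped, and AICAR was highest. The rise with AICAR was 0.66 ± 0.07 (1.58-fold, adjusted p = 7.11e-05), and CHIR99021 minus AICAR was -0.87 (1.82-fold, adjusted p = 1.36e-05). The fall with CHIR99021 was -0.21 ± 0.07 (1.15-fold, adjusted p = 0.0316). That call is narrow: it was lost with spike-in scaling (adjusted p = 0.0637) and when DMSO replicate 2 or 3 or any 1 of the 3 CHIR99021 samples was left out, with changes of -0.18 to -0.23 and adjusted p-values of 0.0529 to 0.0977.

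Of the INK4 inhibitors, 3 of 4 rose with AICAR and 1 of 4 with CHIR99021, and none fell in either comparison. Over all features 30.9% were called higher and 29.6% lower with AICAR, and 30.4% and 20.5% with CHIR99021. Counts among 4 genes are too few to set apart from those shares. Cdkn2b, which encodes p15, an inhibitor induced by TGF-beta in many cell types, gave -2.08, -2.36 and -2.27 with DMSO. It gave -2.19, -2.25 and -2.16 with CHIR99021 and -1.17, -1.15 and -1.14 with AICAR. DMSO and CHIR99021 overlapped and the AICAR arrays stood above both. Cdkn2b rose by 1.08 ± 0.07 with AICAR (2.12-fold, adjusted p = 7.68e-06), and CHIR99021 minus AICAR was -1.05 (2.06-fold, adjusted p = 7.64e-06). With CHIR99021 the difference was 0.04 (95% confidence interval -0.13 to 0.21, adjusted p = 0.684).

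The dimmer Cdkn2b probe, of the same accession, gave -4.98, -5.13 and -4.59 with DMSO, -3.95, -4.58 and -4.21 with CHIR99021 and -3.53, -3.60 and -3.75 with AICAR. It thus read a rise under both treatments, 1.27 ± 0.18 with AICAR (adjusted p = 0.000594) and 0.66 ± 0.18 with CHIR99021 (adjusted p = 0.0203), though CHIR99021 replicate 2 and DMSO replicate 3 lay at nearly the same level. The probes' changes, brighter minus dimmer, differed with CHIR99021 (-0.62, adjusted p = 0.0455) and were not called different with AICAR (-0.19, adjusted p = 0.483). The first of these calls was lost in several alternatives, among them leaving out DMSO replicate 1 or 2, CHIR99021 replicate 1 or 3 or any AICAR sample. With normexp it was -0.15 (adjusted p = 0.175), and the dimmer probe's corrected signals were only 17.4 to 53.3. With the mean of both probes the change of Cdkn2b with CHIR99021 was 0.35 and was called (adjusted p = 0.0280).

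Cdkn2c, which encodes p18, was at -3.91, -3.66 and -3.78 with DMSO, at -3.26, -3.09 and -3.07 with CHIR99021 and at -2.61, -2.45 and -2.55 with AICAR. The order was DMSO, CHIR99021, AICAR from low to high, with no overlap. It rose by 0.64 ± 0.08 with CHIR99021 (1.56-fold, adjusted p = 0.000468) and by 1.25 ± 0.08 with AICAR (2.37-fold, adjusted p = 8.52e-06), and CHIR99021 minus AICAR was -0.61 (1.52-fold, adjusted p = 0.000400). The probe is dim, with corrected signals of 40.7 to 108 on the scanner's scale. The size of its change therefore rests on the background correction: with normexp and an offset of 50 it was 0.37 with CHIR99021, 0.66 with AICAR and -0.29 between the treatments, all still called.

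Cdkn2d, which encodes p19, was at 2.41, 2.42 and 2.38 with DMSO, at 2.34, 2.27 and 2.38 with CHIR99021 and at 3.22, 3.19 and 3.31 with AICAR. Only the AICAR arrays stood apart. The rise with AICAR was 0.84 ± 0.05 (1.79-fold, adjusted p = 5.30e-06), CHIR99021 minus AICAR was -0.91 (1.88-fold, adjusted p = 2.84e-06), and the difference with CHIR99021 was -0.07 (95% confidence interval -0.19 to 0.05, adjusted p = 0.273).

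Cdkn2a, which encodes both p16 and, from another first exon and reading frame, the Mdm2 inhibitor ARF, was the one member called in no comparison. Its brighter probe gave 0.66, 0.51 and 0.59 with DMSO, 0.35, 0.72 and 0.35 with CHIR99021 and 0.60, 0.46 and 0.59 with AICAR. All 3 groups overlapped, and CHIR99021 replicate 2 was the highest of the 9 arrays. The difference from DMSO was -0.11 with CHIR99021 (95% confidence interval -0.35 to 0.13, adjusted p = 0.411) and -0.03 with AICAR (-0.28 to 0.21, adjusted p = 0.800). Without CHIR99021 replicate 2, the CHIR99021 value was -0.23 (adjusted p = 0.0297) and CHIR99021 minus AICAR was -0.20 (adjusted p = 0.0416), so this 1 array decides those calls.

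The dimmer Cdkn2a probe, with the same accession as the brighter one, gave -3.65, -3.56 and -3.42 with DMSO, -3.47, -3.02 and -3.96 with CHIR99021 and -2.98, -3.31 and -2.81 with AICAR. Its AICAR arrays stood above the DMSO arrays, at a difference of 0.51 ± 0.23 that was not called (adjusted p = 0.0898). With CHIR99021 its difference was 0.07 ± 0.23 (adjusted p = 0.839). Brighter minus dimmer, the probes differed in their AICAR change by -0.54 (adjusted p = 0.0377), a call that was lost with quantile normalization (adjusted p = 0.0801), the authors' own values (0.0786), no filter on dim probes (0.0588), and without DMSO replicate 1, 2 or 3 or AICAR replicate 1 or 3. Probe sequences were not at hand, so neither probe was assigned to the p16 or the ARF transcript here.

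**Figure D3:**
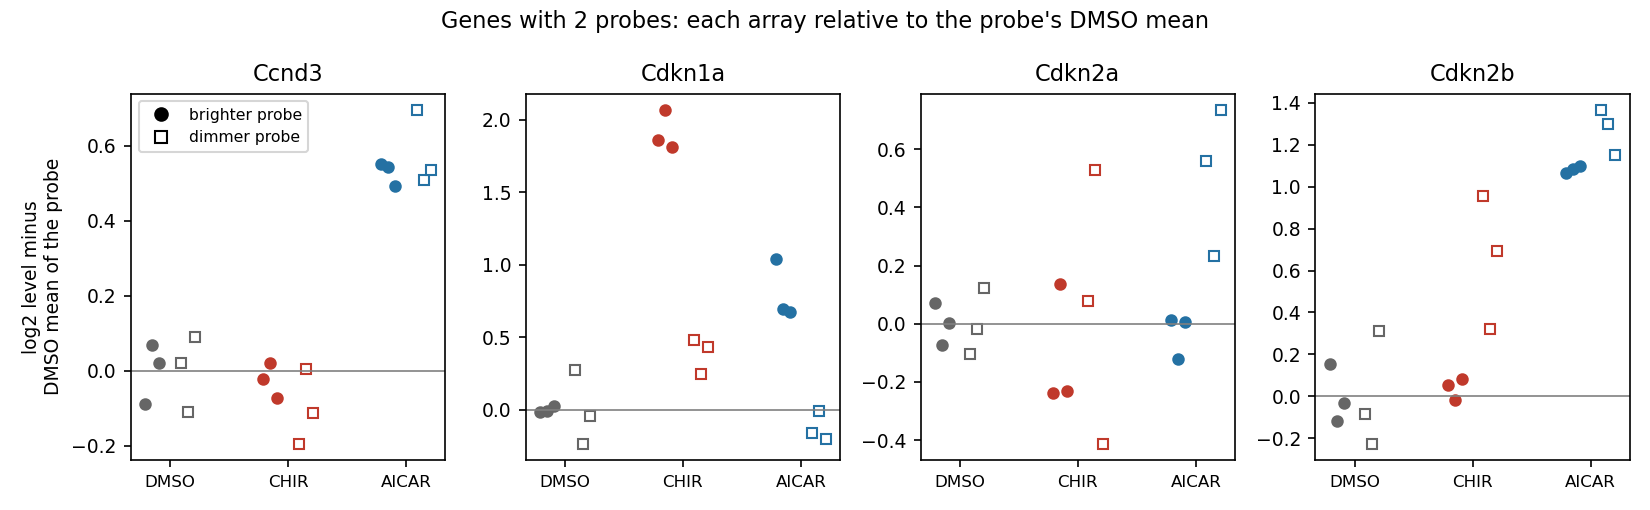
Log2 level minus the probe's own DMSO mean (y axis, ranges differ between panels) on each array for the 4 genes with 2 probes; filled circles are the brighter probe, open squares the dimmer, and colours the groups. For Cdkn1a the brighter probe rises by 1.91 with CHIR99021 and the dimmer by 0.39, while for Ccnd3 the probes lie together.

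The upstream windows of the INK4 genes that rose with AICAR are printed below for comparison with each other. All are on the minus strand of GRCm38.p6 and end next to the start: chr4:89311033-89311282 for Cdkn2b, chr4:109666757-109667006 for the first of the Cdkn2c starts and chr9:21291210-21291459 for Cdkn2d. Capitals mark GC boxes (GGGCGG) and the core of the TCF/LEF motif (CTTTG), on either strand. Windows were held for 7 of the 10 members.
Cdkn2b: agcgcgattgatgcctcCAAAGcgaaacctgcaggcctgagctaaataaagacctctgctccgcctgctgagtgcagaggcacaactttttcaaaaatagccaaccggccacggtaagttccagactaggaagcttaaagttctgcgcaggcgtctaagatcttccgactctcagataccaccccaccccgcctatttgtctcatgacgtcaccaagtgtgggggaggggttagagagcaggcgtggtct
Cdkn2c start 1: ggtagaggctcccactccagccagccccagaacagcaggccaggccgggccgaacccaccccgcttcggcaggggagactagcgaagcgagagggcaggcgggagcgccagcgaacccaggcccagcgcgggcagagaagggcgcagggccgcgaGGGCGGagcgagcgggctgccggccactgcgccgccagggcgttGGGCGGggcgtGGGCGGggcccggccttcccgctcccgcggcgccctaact
Cdkn2d: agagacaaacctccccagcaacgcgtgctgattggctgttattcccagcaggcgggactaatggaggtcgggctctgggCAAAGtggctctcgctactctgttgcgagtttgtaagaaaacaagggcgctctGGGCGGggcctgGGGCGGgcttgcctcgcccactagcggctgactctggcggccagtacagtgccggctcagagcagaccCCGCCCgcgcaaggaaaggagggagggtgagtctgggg
The windows of Cdkn2c start 1 and Cdkn2d each hold 3 GC boxes and that of Cdkn2b none. The window of the other Cdkn2c start (chr4:109665373-109665622), not printed, holds none either. Cdkn2b and Cdkn2d each hold 1 TCF/LEF core, at 233 to 229 and 171 to 167 bases before the start, and so do 48.6% of all windows. For Cdkn2a, the INK4 gene called in no comparison, the window of start 1 holds 2 GC boxes and 1 TCF/LEF core. That of Cdkn2a start 2 holds neither motif.

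Of 13 genes listed as other cyclins and CDKs, 3 rose and 5 fell with CHIR99021, and 4 rose and 5 fell with AICAR. The list medians were -0.13 and -0.07. With CHIR99021 the share called is 23.1% higher and 38.5% lower, beside 30.4% and 20.5% of all features. With AICAR it is 30.8% and 38.5%, near the 30.9% and 29.6% of all features. Cdk4, a catalytic partner of D cyclins, fell with AICAR by 0.35 ± 0.05 (adjusted p = 0.000694), or by 0.19 and no longer called with spike-in scaling (adjusted p = 0.142). With CHIR99021 Cdk4 was 0.15 ± 0.05 higher (adjusted p = 0.0463), a call lost with each other scaling and without any 1 DMSO or CHIR99021 sample, and its 3 probes ranged from -0.08 to 0.15. Cdk6, the other partner, rose by 0.89 ± 0.26 with CHIR99021 (adjusted p = 0.0231), which was not called without DMSO replicate 1 or 2 or CHIR99021 replicate 2 or 3 and was 0.34 with normexp. Its AICAR difference was -0.11 ± 0.26 (adjusted p = 0.752).

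Ccne1, which encodes cyclin E1, the cyclin of CDK2 at the G1/S transition, fell by 0.28 ± 0.06 with CHIR99021 (adjusted p = 0.00685, and 0.0521 with spike-in scaling) and by 0.50 ± 0.06 with AICAR (adjusted p = 0.000253). Ccne2 was 2.30 ± 0.50 higher with CHIR99021 (adjusted p = 0.00566) and 1.55 ± 0.50 higher with AICAR (adjusted p = 0.0264), but only 1 of its 3 DMSO arrays was well above background and the levels there were -5.69, -6.94 and -7.74. With normexp these changes were 0.55 and 0.26, and the AICAR call was lost without DMSO replicate 2 or 3 or AICAR replicate 3. Ccna1, the germline A-type cyclin, fell by 0.61 ± 0.10 with CHIR99021 (adjusted p = 0.00168) and rose by 1.55 ± 0.10 with AICAR (adjusted p = 7.57e-06), with normexp values of -0.17 and 0.94. Cdk7, the CDK-activating kinase, fell by 0.87 ± 0.10 with AICAR (adjusted p = 0.000160), and its other probe read -0.22. The CHIR99021 count of this list was 5 in place of 8 without DMSO replicate 1 or CHIR99021 replicate 3, and with spike-in scaling.

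Among 13 pocket proteins and E2F factors, which lie downstream of the members, 4 rose and 6 fell with CHIR99021 and 7 rose and 4 fell with AICAR, with medians of -0.03 and 0.18. The shares called higher and lower were 30.8% and 46.2% with CHIR99021 (all features, 30.4% and 20.5%) and 53.8% and 30.8% with AICAR (all features, 30.9% and 29.6%). Rb1, which encodes the retinoblastoma protein itself, was at 0.59, 0.63 and 0.65 with DMSO, at -0.08, -0.05 and -0.02 with CHIR99021 and at 1.25, 1.24 and 1.28 with AICAR. Its groups did not overlap. It fell by 0.67 ± 0.04 with CHIR99021 (1.59-fold, adjusted p = 9.09e-06) and rose by 0.63 ± 0.04 with AICAR (1.55-fold, adjusted p = 7.82e-06), a span of -1.31 between the treatments (2.47-fold, adjusted p = 2.23e-07). E2f1, an activating E2F, rose by 0.29 ± 0.05 with AICAR (adjusted p = 0.00144) and was at 0.03 ± 0.05 with CHIR99021 (adjusted p = 0.689). E2f4 and E2f6, repressive members of the family, rose with CHIR99021 by 0.72 ± 0.10 and 0.62 ± 0.06 (adjusted p = 0.000512 and 0.000108). E2f3 also rose with CHIR99021, by 0.49 ± 0.05 (adjusted p = 0.000120). With AICAR, E2f3 fell by 0.72 ± 0.05 (adjusted p = 9.66e-06) and Tfdp1, the E2F dimer partner, fell by 0.53 ± 0.06 (adjusted p = 9.52e-05). With spike-in scaling 6 in place of 10 genes were called with CHIR99021.

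Of 18 genes listed for the turnover or phosphorylation state of cyclins, CDKs and inhibitors, 2 rose and 9 fell with AICAR (median -0.21). That is 11.1% and 50.0% of the list beside 30.9% and 29.6% of all features. With CHIR99021, 5 rose and 2 fell (median 0.01), or 27.8% and 11.1% beside 30.4% and 20.5%. Spike-in scaling left 3 of the 11 AICAR calls and 1 of the 7 CHIR99021 calls, and the CHIR99021 count was 4 without DMSO replicate 1, 2 or 3 or CHIR99021 replicate 1 or 2. Cul1, the scaffold of SCF ubiquitin ligases, fell by 1.14 ± 0.08 with AICAR (2.20-fold, adjusted p = 1.33e-05). Rbx1, its RING partner, fell by 0.41 ± 0.04 on its brightest probe, with 3 probes from -0.41 to 0.04, and Ambra1, the substrate receptor for D cyclins, fell by 0.38 ± 0.05. Both of those calls were lost with spike-in scaling (adjusted p = 0.0541 and 0.121).

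With CHIR99021, Fbxw7, the receptor that marks cyclin E for breakdown, rose by 0.37 ± 0.06 (adjusted p = 0.000997), with its 2 probes at 0.11 and 0.37. Of the CUL4 scaffolds, Cul4b rose by 0.32 ± 0.05 and Cul4a fell by 0.25 ± 0.05 (adjusted p = 0.000878 and 0.00495). The other Cul4b probe read 0.04, and neither gene was called with spike-in scaling. Gsk3b, which encodes a target of CHIR99021 and a kinase that phosphorylates cyclin D1, differed by 0.28 ± 0.11 with CHIR99021 (adjusted p = 0.0605) and by 0.15 ± 0.11 with AICAR (adjusted p = 0.273). Both differences were called in some alternatives, among them normexp (0.30 and 0.23, adjusted p = 0.00872 and 0.0274). Its 3 probes ranged from -0.06 to 0.28 with CHIR99021.

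The next list held transcription factors and chromatin regulators known to act on the members' genes, and also Mdm2 and Mdm4. Of 19 tested, 4 rose and 7 fell with CHIR99021, and 5 rose and 10 fell with AICAR, with medians of -0.10 and -0.24. These are 21.1% and 36.8% of the list with CHIR99021, where 30.4% and 20.5% of all features were called, and 26.3% and 52.6% with AICAR, where 30.9% and 29.6% were. Trp53, which encodes p53, fell by 0.38 ± 0.10 with CHIR99021 (adjusted p = 0.0163) and by 0.75 ± 0.10 with AICAR (adjusted p = 0.000412). The first of these was not called without DMSO replicate 1 or CHIR99021 replicate 1 (adjusted p = 0.0521 and 0.0507). Mdm2, which encodes the ligase that degrades p53 and is itself a p53 target, was at -0.10 ± 0.05 with CHIR99021 (adjusted p = 0.161) and rose by 0.36 ± 0.05 with AICAR (adjusted p = 0.000560).

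Myc, which represses Cdkn1a and Cdkn2b and activates Ccnd2 in many cells, was at 1.02, 0.83 and 0.85 with DMSO, at 0.34, 0.24 and 0.34 with CHIR99021 and at -2.88, -2.91 and -2.66 with AICAR. The AICAR arrays stood far below the others. Myc fell by 0.59 ± 0.08 with CHIR99021 (adjusted p = 0.000625) and fell by 3.72 ± 0.08 with AICAR (13.2-fold, adjusted p = 6.61e-08). Lef1, a partner of beta-catenin, fell by 2.45 ± 0.06 with AICAR (5.47-fold, adjusted p = 8.11e-08), and Twist1 rose by 1.15 ± 0.13 (adjusted p = 0.000139) or by 0.65 with normexp.

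With CHIR99021 the largest calls of that list were Plagl1, Cbx7 and Klf4. Plagl1, an imprinted zinc finger gene that is known to activate Cdkn1c, rose by 4.06 ± 0.12 on its brightest probe (16.7-fold, adjusted p = 2.64e-07), with 4 probes from 0.13 to 4.18 and 2.29 for their mean. Cbx7, a Polycomb protein known to repress the Cdkn2a locus, rose by 1.96 ± 0.18 (3.90-fold, adjusted p = 6.16e-05) or by 1.28 with normexp. Klf4, an activator of Cdkn1a, rose by 1.06 ± 0.04 (2.09-fold, adjusted p = 6.69e-07).

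Of 11 imprinted neighbours of Cdkn1c, 4 rose and 2 fell with CHIR99021 and 6 rose and 2 fell with AICAR, with medians of 0.07 and 0.33, while Cdkn1c itself was at -2.59 and -0.93. With CHIR99021 the shares of 36.4% higher and 18.2% lower are near the 30.4% and 20.5% of all features, and with AICAR they were 54.5% and 18.2% beside 30.9% and 29.6%. The CHIR99021 count was 3 in place of 6 without DMSO replicate 3 or CHIR99021 replicate 2, and with spike-in scaling. Kcnq1ot1, the noncoding RNA that silences the cluster on the paternal chromosome, differed by 0.57 ± 0.26 with CHIR99021 (adjusted p = 0.101) and by -0.07 ± 0.26 with AICAR (adjusted p = 0.836). Its 2 probes ranged from -1.05 to -0.07 with AICAR. With the mean of its probes Kcnq1ot1 was called in both comparisons, at 0.46 with CHIR99021 and -0.56 with AICAR (adjusted p = 0.0134 and 0.00394). Ascl2, a trophoblast and stem cell factor, rose by 0.56 ± 0.05 with CHIR99021 and by 1.17 ± 0.05 with AICAR (adjusted p = 5.47e-05 and 8.38e-07). Th, the tyrosine hydroxylase gene, rose by 0.59 ± 0.09 with CHIR99021 (adjusted p = 0.000919) and Tssc4 fell by 0.31 ± 0.07 (adjusted p = 0.00784).

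With AICAR, Slc22a18, a transporter gene next to Cdkn1c, rose by 1.21 ± 0.06 (2.32-fold, adjusted p = 1.54e-06). Kcnq1, a potassium channel gene, was 2.14 ± 0.41 higher (adjusted p = 0.00232), with 1 of 3 DMSO and 3 of 3 AICAR arrays well above background and a value of 0.51 with normexp. Of the neighbours of Cdkn2a and Cdkn2b, 3 were tested. Mtap, which encodes a methionine salvage enzyme, rose by 0.50 ± 0.06 with CHIR99021 (adjusted p = 0.000186). It fell by 0.24 ± 0.06 with AICAR (adjusted p = 0.00650), where Cdkn2b rose, and that fall was not called with spike-in scaling. Elavl2, an RNA-binding protein gene, rose under both treatments, by 0.72 ± 0.08 and 0.32 ± 0.08 (adjusted p = 0.000180 and 0.00902), and its other probe read 0.46 with CHIR99021.

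**Figure D4:**
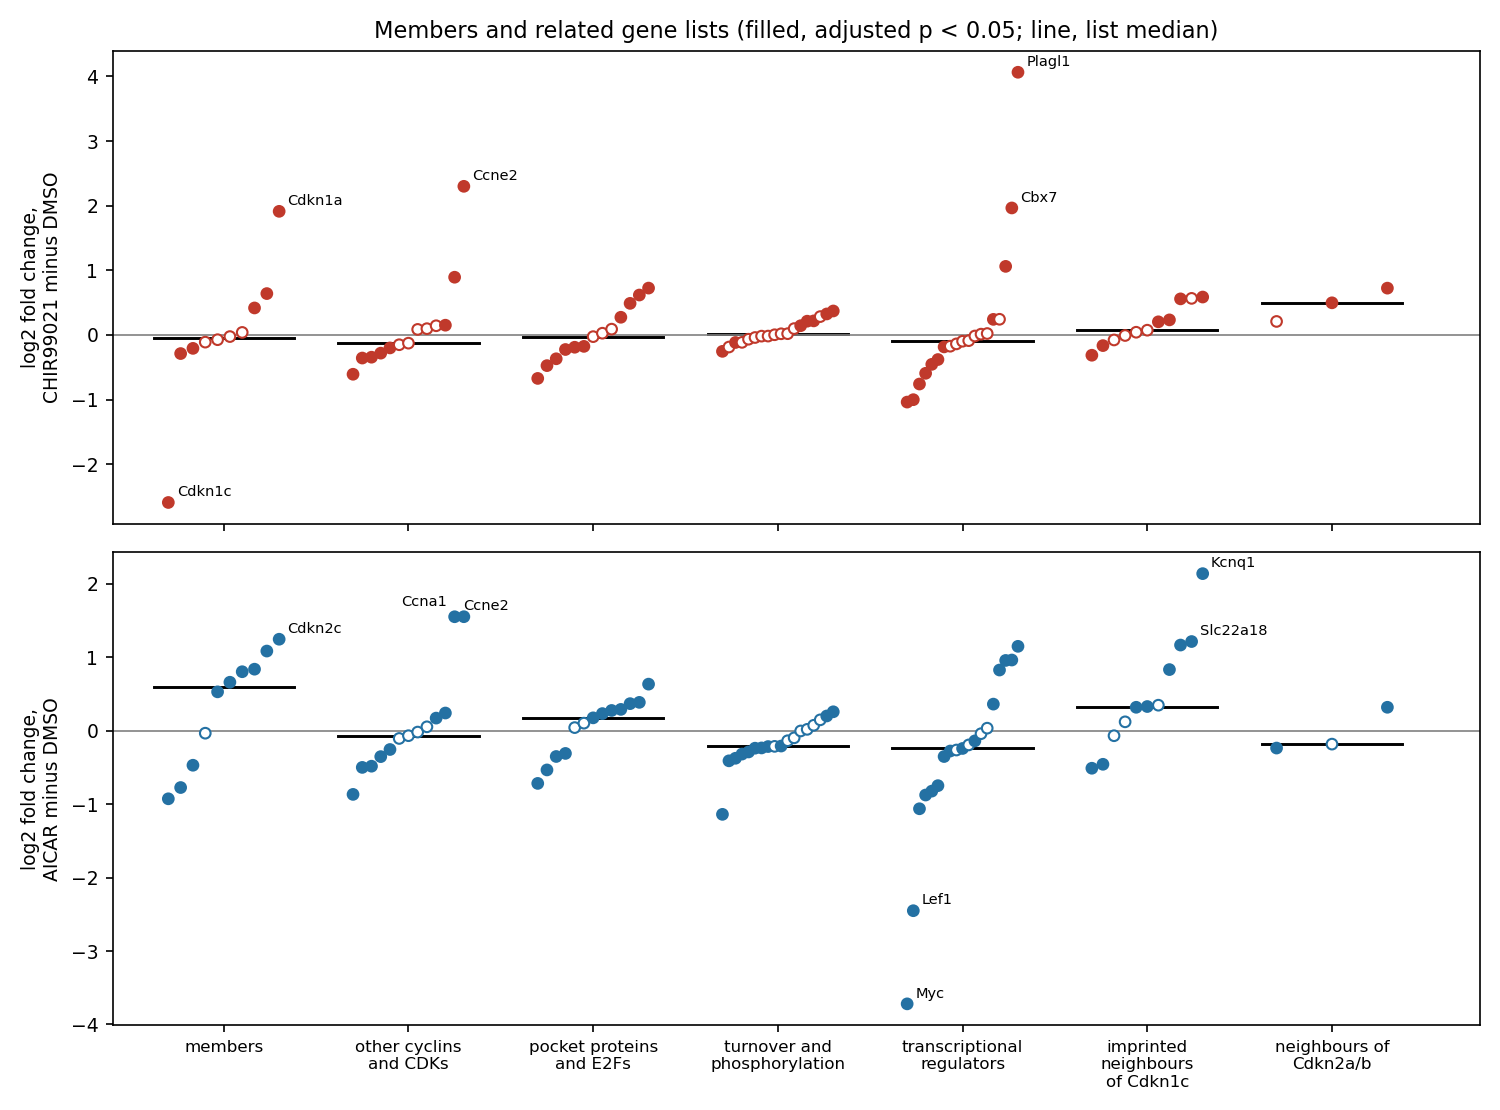
Log2 fold change (y axis) of each tested gene of the members and of the 6 related lists (x axis) with CHIR99021 (upper, red) and AICAR (lower, blue). Each point is a gene, filled where the adjusted p is under 0.05, black lines are list medians, and genes beyond 1.2 in absolute size are named; the members' median is -0.05 in the upper panel and 0.59 in the lower.

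The genes whose 9 array values ran closest to the members with the widest range were found by the root mean square difference after each gene was centred on its own mean. For Cdkn1c these were Eif4e1b (0.176), Lhx3 (0.179) and Pim2 (0.220), with CHIR99021 changes of -2.52, -2.23 and -2.28 and AICAR changes of -1.05, -0.68 and -1.10. For Cdkn1a they were Fam53b (0.0995), Cavin1 (0.114) and Stx3 (0.119), with CHIR99021 changes of 1.91, 1.78 and 1.92 and AICAR changes of 0.79, 0.88 and 0.78. For Cdkn2c they were Rab39 (0.0808), Ascl2 (0.0833) and Efemp2 (0.0837), with changes of 0.67, 0.56 and 0.59 with CHIR99021 and of 1.37, 1.17 and 1.23 with AICAR. Ascl2 is thus both an imprinted neighbour of Cdkn1c and one of the genes closest to Cdkn2c. Eif4e1b was at -6.29, -5.88 and -6.12 on the CHIR99021 arrays. The lowest level of a probe well above background on those arrays was -5.85, -5.72 and -5.80. The CHIR99021 change of Eif4e1b and its likeness to Cdkn1c therefore rest on signal near background. The measure describes these 9 arrays and carries no test.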

How the data were processed

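The authors deposited the scanner output of 9 Agilent arrays, 3 per group. The files hold each spot's intensity (background-corrected signal) as written by Agilent Feature Extraction 10.7.3.1, per the file headers, which also name build mm9; the submitters' processing notes give version 10.7. A table of the authors' own log2 values was deposited as well; its median is 5.18 on each array and it correlates with the values used here at 0.99962 to 0.99999, but its centring is not stated. The members and gene lists were chosen with earlier results of these data known. The members were taken by name, the genes named from the other lists by a rule (the 3 called genes with the largest change per list and treatment, plus Cdk4, Cdk6, Ccne1, Rb1, E2f1, Skp2, Trp53, Mdm2, Myc, Gsk3b and Kcnq1ot1), and those like a member by the 3 smallest differences. Skp2 had no probe, H19 no probe matched by accession, and Zbtb17, Trpm5 and 2 of the 5 neighbours of Cdkn2a and Cdkn2b did not pass the filter on dim probes.

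Values are log2 of the processed signal minus log2 of the array's 75th percentile over 59305 spots that are not controls. Between 136 and 192 outlier spots per array were dropped, and the remaining spots of each probe were averaged. Probes well above background on at least 3 of 9 arrays were kept, 37742 of 55681, and a gene was read by its brightest kept probe, giving 26866 features. Accessions were named through the RefSeq GRCm38.p6 table, used for names and promoters only, which matched 27235 probes; 16090 of the features have a symbol. limma 3.58.1 in R 4.3.3 fitted all 9 arrays together with no covariate, and p-values were adjusted by Benjamini-Hochberg over all features. The number of arrays limits the precision. The fit was tested on simulated arrays with few changed features and no slide effect. That test therefore does not bear on the confounding of slide and group.

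Replicate numbers recur in each group, but deviations of arrays with the same number correlated at -0.0549 to 0.0877 (9 pairs) and those with different numbers at -0.129 to 0.109 (18 pairs), so the numbers were not taken to pair the samples. Alternatives were quantile normalization, spike-in scaling, normexp with an offset of 50, the authors' table, other filters, other ways to combine probes, a replicate block, only the 2 groups compared and each array left out. For normexp the median signal of each spot was used, since the files hold no mean signal.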

Additional observations from a re-analysis of the deposited data

How the results depend on the processing

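Every count of called features, probes and members stayed within 1.5 times its value in each of the 19 alternatives that gives it, and the members called with AICAR numbered 9 throughout. Of the members' called changes none reversed. All sign changes concern values that were not called: with spike-in scaling Cdkn2a (0.13) and Kcnq1ot1 (0.10) with AICAR, Cdk6 with AICAR (0.061), and Cdkn2b (-0.011) and E2f1 (-0.023) with CHIR99021; with quantile normalization Cdkn2b (-0.010) and E2f1 (-0.042) with CHIR99021; with the authors' table Cdkn2b (-0.026) and E2f1 (-0.027); with normexp E2f1 (-0.0012) and the probe difference of Cdkn2b with AICAR (0.40, then called, adjusted p = 0.00122); and with the mean of both probes Cdkn2a with AICAR (0.24). Leaving out single arrays gave, with AICAR, -0.071 to 0.0098 for Cdkn2a, -0.29 to 0.18 for Cdk6, -0.26 to 0.13 for Kcnq1ot1 and -0.10 to 0.039 for the probe difference of Ccnd3. With CHIR99021 it gave -0.070 to 0.0091 for Ccnd3 and -0.021 to 0.12 for Cdkn2b. The cause of these changes was not tested.

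With the replicate number as a block, 5 members were called with CHIR99021 in place of 6, since Cdkn1b had an adjusted p of 0.0524, and 9 in each other comparison. The features called were 12711 in place of 13696 with CHIR99021 and 15460 in place of 16252 with AICAR. The called probe differences of Cdkn2a and Cdkn2b were lost (adjusted p = 0.0837 and 0.0808), as was Cdk4 with CHIR99021 (0.0780), and 4 in place of 7 turnover genes were called with CHIR99021. Low signal over background limits Cdkn2c, Ccne2 and Kcnq1, whose changes were smaller with normexp. The changes given above for Cdk6, Ccna1, Twist1 and Cbx7 were smaller with normexp too. Over the alternatives other than leaving out single arrays, the AICAR change of Cdkn2b ranged from 0.80 to 1.25. Its CHIR99021 minus AICAR difference ranged from -1.26 to -0.75, and both were called throughout.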
